A study of Arabidopsis thaliana with 6 samples.

Results

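The genes described here are protein-coding genes of the chloroplast (plastid) genome of Arabidopsis thaliana. They were measured in seedlings sprayed with the compound NJ15 or with mock solution. Members were taken by their lower-case symbols in the array annotation, which keeps plastid psa and psb genes apart from the nuclear PSA and PSB genes. Of 55 listed symbols, 54 had a probe set (the array's unit of measurement for a transcript) paired with 1 gene, out of 13356 genes with such a probe set on the array. A gene table placed all 54 on the plastid genome, which the matching of symbols to probe sets required. The remaining symbol, ndhB, lies in the repeated part of that genome, and its probe set was paired with both copies and left out.

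The study used Col-0, the wild type, throughout. The 3 NJ15 samples were seedlings sprayed with 10 µM NJ15, an acetate ester that carries a dichlorophenyl tetrazole, and the 3 mock samples were seedlings sprayed with mock solution. All had stood upright on MS plates for 4 days and were turned by 90 degrees to start gravitropic bending, with RNA taken 8 h later. The labels call the 3 samples of each group biological replicates and do not say whether they came from separate plates or days. Whole seedlings were extracted, so fewer green cells and less plastid RNA per cell cannot be told apart.

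Plastids keep a small genome whose genes encode core subunits of the photosynthetic complexes, the large subunit of Rubisco, part of the ribosome and a bacterial type of RNA polymerase. Most other subunits of the same complexes are encoded in the nucleus, so their assembly needs both genomes. The plastid-encoded polymerase, built from the rpo products with nuclear sigma factors, transcribes mainly photosynthesis genes. A phage-type polymerase encoded in the nucleus transcribes the rpoB genes and accD, among others. Many plastid genes are transcribed together with their neighbours and then processed into shorter RNAs. Plastid RNAs carry few stable poly(A) tails, and the labelling kit named in the labels starts from poly(A), so each value is a signal of that reaction and not a measure of how abundant a transcript is next to another.

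Most plastid-encoded genes had a lower mean in NJ15 than in mock seedlings, by small amounts, and none passed the test. The deposited values are on a log2 scale, so a difference of 1 is a doubling. In 4 of the 54 members (psbK, psbL, atpI and ndhI) the 6 arrays spanned no more than 0.01 log2 units. Such probe sets, called flat here, made up 73.0% of all 22746 tested and allow no statement on a change, and which processing step made them flat was not tested. The other 50 members varied, although ndhA, with a span of 0.012, and psaB, with 0.043, barely did. Of the 50, 46 had a lower mean in NJ15 and 4 (psbE, psbF, psbI and matK) a higher one, and the median log2 fold change was -0.22. Among all 6144 varying probe sets, 53.1% had a lower mean in NJ15 and the median was -0.0062.

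**Figure D1:**
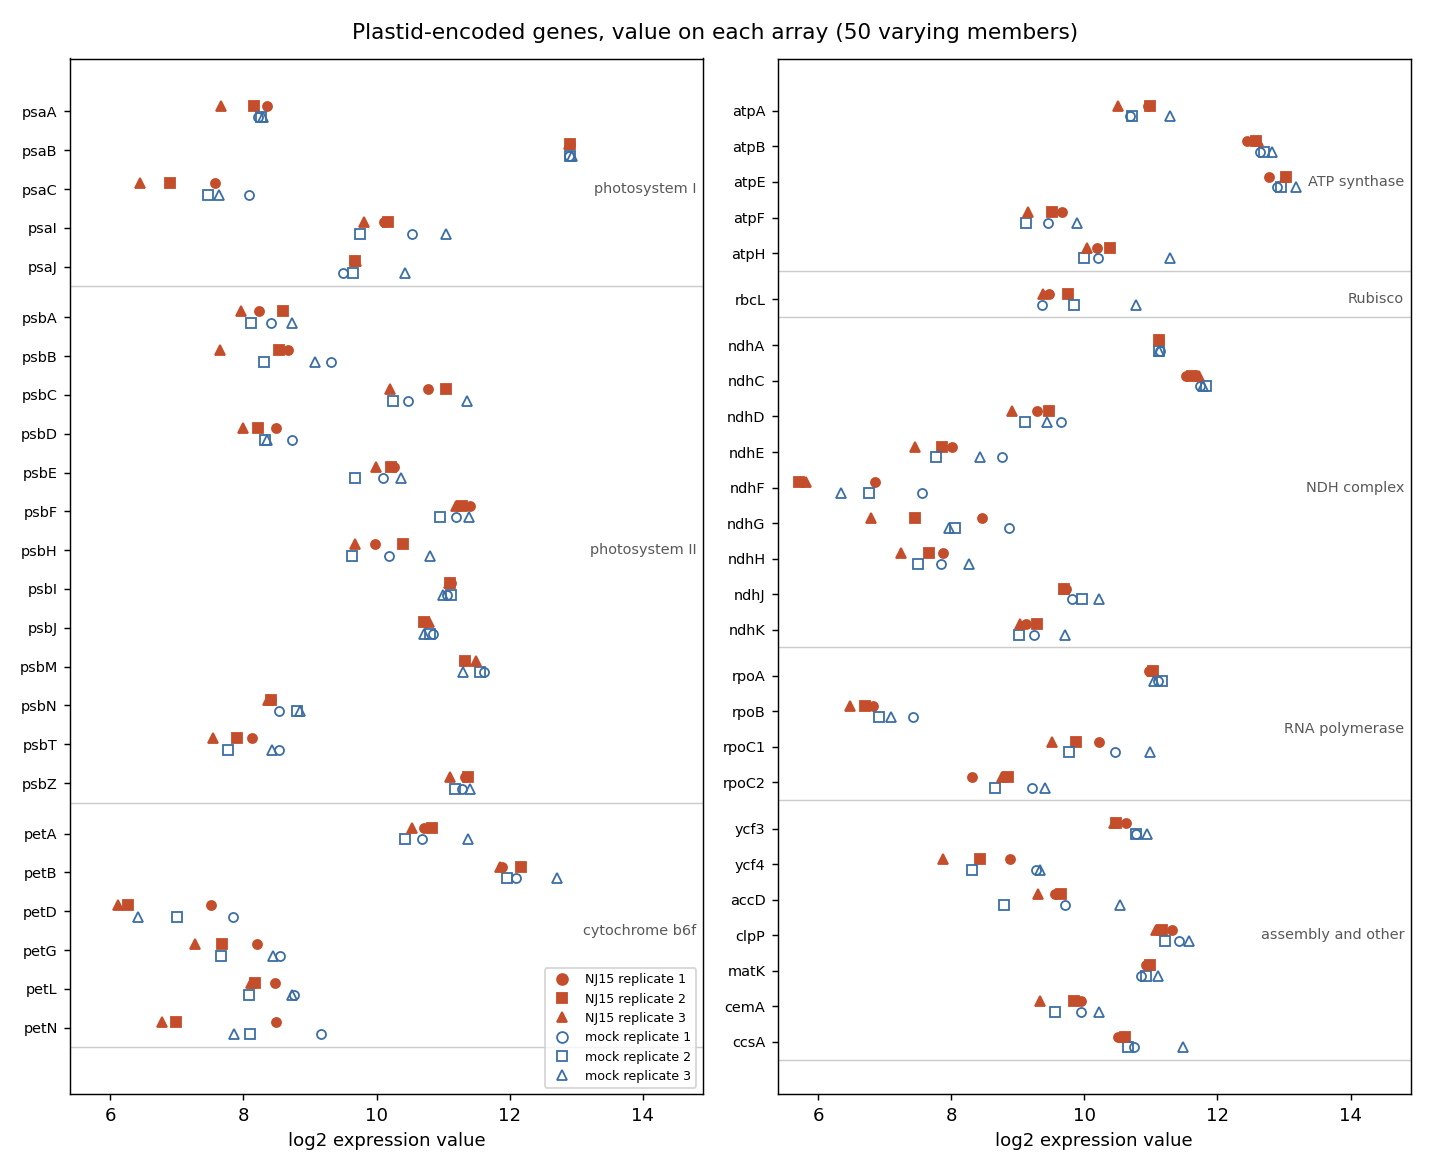
Log2 expression value (x axis) of the 50 varying plastid-encoded genes (rows, by functional group) on each of the 3 NJ15 arrays (filled) and the 3 mock arrays (open). Each marker is 1 array and its shape is the replicate number. In 8 genes, such as ycf3 and rpoB, all NJ15 markers lie left of all mock markers, and in the others the groups overlap.

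In limma's fit over all probe sets, 0.193% (44 of 22746) had an adjusted p under 0.05, and 0.11% were called lower in NJ15. No member was called, with adjusted p-values between 0.715 (ycf3) and 1. At an unadjusted p under 0.05 there were 3 members, psbN, rpoA and ycf3, all with a lower mean. Among all varying probe sets 7.28% passed that level, and 3.08% did so with a lower mean in NJ15. When limma was fitted to varying probe sets only, 0.0651% were called, all of them higher in NJ15 and again no member among them. The lowest adjusted p of a member in that limma fit was 0.355 (ycf3). All 3 NJ15 arrays lay below all 3 mock arrays in 8 of the 50 members, psbN, atpB, ndhC, ndhJ, rpoA, rpoB, ycf3 and ccsA, which is 16%. The same held in 5.96% of all varying probe sets. No member had all NJ15 arrays above all mock arrays, against 6.51% of the varying probe sets. Members share the 6 arrays, and neighbouring genes share transcripts, so these counts are not counts of independent observations.

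The count of lower means rested partly on mock replicate 3. Without that array 34 of the 50 members, not 46, had a lower mean in NJ15, with a median of -0.13, and the share among all varying probe sets was 50.7%. Leaving out any other single array gave between 43 and 48. The count of members with separate groups was 10 without mock replicate 3, where 17.6% of the varying probe sets were separate and lower. It was 20 (8.95% of the varying probe sets) without mock replicate 2 and 16 (10.4%) without NJ15 replicate 1. Without mock replicate 1 it was 9 (14.3%), without NJ15 replicate 2 it was 10 (8.15%) and without NJ15 replicate 3 it was 8 (10.1%).

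Photosystem I takes light energy to pass electrons on to ferredoxin. Its 5 plastid-encoded members all had a lower mean in NJ15, with a median log2 fold change of -0.21, and in all 5 the groups overlapped. psaC, the subunit that carries the terminal iron-sulfur clusters, had log2 values of 7.57, 6.90 and 6.44 in NJ15 replicates 1, 2 and 3, against 8.08, 7.47 and 7.64 in the mock replicates. NJ15 replicates 2 and 3 lay below every mock array, while NJ15 replicate 1 reached into the mock range. Its log2 fold change of -0.76 had a standard error of 0.37 and did not pass (limma, adjusted p = 0.83). psaA and psaB, which form the reaction centre together, had log2 fold changes of -0.21 and -0.012. For psaA the values were 8.35, 8.16 and 7.66 in NJ15, against 8.22, 8.27 and 8.30 in mock. NJ15 replicate 3 was the low array, and without it the psaA log2 fold change was -0.0076. psaB had 12.90, 12.90 and 12.89 in NJ15, against 12.89, 12.90 and 12.94 in mock, and its small fold change turned to 0.0014 without mock replicate 3 and to 0.062 after quantile normalization. The small subunits psaI and psaJ had log2 fold changes of -0.41 and -0.18, with mock replicate 3 the highest array in both.

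Photosystem II, which splits water, had 15 members, of which 2 were flat, 10 had a lower mean in NJ15 and 3 a higher one. The median log2 fold change was -0.11 and went to -0.012 without mock replicate 3. psbA encodes the D1 protein, the reaction centre subunit that is damaged by light and replaced most often. Its log2 values were 8.23, 8.59 and 7.96 in NJ15 and 8.42, 8.12 and 8.73 in mock seedlings. The psbA groups overlapped widely, with a log2 fold change of -0.16 and a standard error of 0.25. psbD, for the partner protein D2, had -0.24. psbB and psbC encode the inner antenna proteins, and their log2 fold changes differed, at -0.62 and -0.02. For psbB the values were 8.67, 8.53 and 7.65 in NJ15, against 9.32, 8.31 and 9.07 in mock, so that mock replicate 2 lay within the NJ15 range. psbC had 10.77, 11.04 and 10.20 in NJ15, against 10.47, 10.24 and 11.36 in mock.

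psbN, which encodes a small protein needed to assemble photosystem II rather than a subunit of it, was the 1 photosystem II member with separate groups. It had 8.42, 8.41 and 8.37 in NJ15 and 8.54, 8.81 and 8.85 in mock seedlings. The 3 NJ15 values lay close together, below the lowest mock value. It had a log2 fold change of -0.33 ± 0.097 (SE; adjusted p = 0.771 in limma). psbE and psbF, which encode the subunits of the b-type cytochrome of photosystem II, were among the 4 members with a higher mean in NJ15, with log2 fold changes of 0.11 and 0.12. psbE turned to -0.078 without mock replicate 2. Of the other small subunits, psbT had -0.39, psbH -0.19, psbM -0.11, psbJ -0.044, psbZ -0.02 and psbI 0.043. psbM had 11.31, 11.33 and 11.50 in NJ15, against 11.62, 11.56 and 11.30 in mock, and with psbI was 1 of the 2 members in which mock replicate 3 was the lowest array.

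The cytochrome b6f complex carries electrons between the photosystems. All 6 of its members varied and had a lower mean in NJ15, with a median log2 fold change of -0.37 that lay between -0.56 and -0.22 when single arrays were left out. petN, a very small subunit, had the lowest log2 fold change of all members, -0.96, with a standard error of 0.66. Its values were 8.49, 6.98 and 6.78 in NJ15 and 9.17, 8.10 and 7.86 in mock seedlings. NJ15 replicates 2 and 3 lay below every mock array, and NJ15 replicate 1 lay inside the mock range (limma, adjusted p = 0.938). The petN log2 fold change was -0.56 without mock replicate 1, where rbcL had the lowest at -0.77, and -1.5 without NJ15 replicate 1. petB, for cytochrome b6, had 11.89, 12.17 and 11.85 in NJ15, against 12.10, 11.96 and 12.71 in mock, a log2 fold change of -0.29. petD, for subunit IV, had 7.51, 6.26 and 6.12 in NJ15, against 7.85, 7.0 and 6.41 in mock, a log2 fold change of -0.45 that was -0.069 without mock replicate 1 and -0.89 without NJ15 replicate 1. In petB the highest array was mock replicate 3, and in petD that array was the lowest of the mock group. petA, for cytochrome f, had 10.72, 10.84 and 10.53 in NJ15, against 10.68, 10.42 and 11.37 in mock, a log2 fold change of -0.13 that turned to 0.14 without mock replicate 3. The small subunits petG and petL had log2 fold changes of -0.49 and -0.27.

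The plastid ATP synthase makes ATP from the proton gradient across the thylakoid membrane. Of its 6 members, atpI was flat, and the 5 that varied had small changes, with a median log2 fold change of -0.087. In all 5 the highest array was mock replicate 3, and without it the median was 0.1. atpB, for the catalytic beta subunit, had 12.44, 12.58 and 12.61 in NJ15 and 12.64, 12.70 and 12.82 in mock seedlings. The atpB groups did not overlap, but the gap between the nearest NJ15 and mock arrays was narrow, with a log2 fold change of -0.18 ± 0.073 (SE; adjusted p = 0.83 in limma). atpE, for the epsilon subunit encoded beside it, had 12.77, 13.03 and 13.01 in NJ15, against 12.89, 12.95 and 13.18 in mock, and overlapping groups. atpH, for the ring subunit in the membrane, had 10.19, 10.39 and 10.04 in NJ15, against 10.21, 10.00 and 11.28 in mock. Its log2 fold change of -0.29 turned to 0.1 without mock replicate 3, which alone stood apart. The alpha subunit gene atpA had 10.95, 10.99 and 10.51 in NJ15, against 10.69, 10.72 and 11.29 in mock, a log2 fold change of -0.087, and the stator gene atpF had -0.047.

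rbcL encodes the large subunit of Rubisco, the enzyme that fixes carbon dioxide. It had 9.47, 9.76 and 9.38 in NJ15 and 9.36, 9.85 and 10.77 in mock seedlings. Mock replicate 3 was far above the other 5 arrays, and mock replicate 1 was the lowest. The log2 fold change was -0.46, and it was -0.067 without mock replicate 3.

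The NDH complex returns electrons from the stroma into the electron transport chain. Of its 11 members, ndhB had no single-gene probe set, ndhI was flat at 12.70, and the other 9 had a lower mean in NJ15, with a median log2 fold change of -0.27. ndhF, a proton-pumping subunit in the membrane, had 6.85, 5.72 and 5.82 in NJ15 and 7.56, 6.76 and 6.35 in mock seedlings. NJ15 replicates 2 and 3 were the lowest arrays and mock replicate 1 the highest, with a log2 fold change of -0.76 ± 0.5 (SE; adjusted p = 0.938 in limma). The membrane subunit genes ndhG and ndhE had log2 fold changes of -0.73 and -0.55, also with overlapping groups.

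ndhC and ndhJ had separate groups with smaller changes. ndhJ, for a subunit of the peripheral arm, had 9.72, 9.69 and 9.70 in NJ15, against 9.81, 9.96 and 10.22 in mock, a log2 fold change of -0.3 ± 0.12 (SE; adjusted p = 0.83 in limma). ndhC, for a membrane subunit, had 11.53, 11.62 and 11.73 in NJ15, against 11.74, 11.83 and 11.78 in mock, a log2 fold change of -0.16. NJ15 replicate 3 and mock replicate 1 all but touched in ndhC. The remaining members ndhH, ndhK, ndhD and ndhA had log2 fold changes of -0.27, -0.18, -0.17 and -0.0043.

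The 4 genes of the plastid RNA polymerase varied and had a lower mean in NJ15. Their median log2 fold change was -0.46, and it stayed between -0.63 and -0.27 when single arrays were left out. rpoB, for the beta subunit of the polymerase core, had 6.82, 6.70 and 6.48 in NJ15 and 7.43, 6.91 and 7.09 in mock seedlings. The groups were separate, with a log2 fold change of -0.47 ± 0.18 (SE; adjusted p = 0.83 in limma). rpoA, for the alpha subunit, was separate as well, with 10.97, 11.03 and 11.02 in NJ15, against 11.10, 11.17 and 11.05 in mock, but the log2 fold change was only -0.1. rpoC1, whose product forms part of the active centre, had 10.22, 9.88 and 9.51 in NJ15, against 10.46, 9.77 and 10.99 in mock. Mock replicate 2 lay inside the NJ15 range, and the log2 fold change was -0.53 ± 0.4 (SE). rpoC2 had a log2 fold change of -0.45. Among the sigma factors and other nuclear partners of plastid transcription, only RPOTMP, of 25 genes listed, had a single-gene probe set, and it was flat, so that the nuclear side was not analysed here.

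The other 7 members act in assembly or outside photosynthesis, and mock replicate 3 was the highest array in all 7. ycf3, an assembly factor of photosystem I, had the lowest unadjusted p of all members, 0.0122. It had 10.62, 10.48 and 10.44 in NJ15 and 10.78, 10.78 and 10.94 in mock seedlings. All NJ15 arrays lay below all mock arrays, with a log2 fold change of -0.32 ± 0.075 (SE; adjusted p = 0.715 in limma). It stayed between -0.37 and -0.27 without any single array. ccsA, which attaches heme to c-type cytochromes, had 10.50, 10.61 and 10.58 in NJ15, against 10.74, 10.66 and 11.49 in mock. The groups were separate, but the log2 fold change of -0.4 was -0.14 without mock replicate 3. ycf4, also an assembly factor of photosystem I, had 8.88, 8.44 and 7.88 in NJ15, against 9.27, 8.31 and 9.33 in mock, a log2 fold change of -0.57. clpP, the proteolytic subunit of the Clp protease, had 11.32, 11.16 and 11.07 in NJ15, against 11.42, 11.21 and 11.58 in mock, a log2 fold change of -0.22. accD, a subunit of the acetyl-CoA carboxylase of fatty acid synthesis, had 9.56, 9.65 and 9.31 in NJ15, against 9.71, 8.79 and 10.53 in mock. The accD mock arrays held the NJ15 arrays between them, and the log2 fold change of -0.17 turned to 0.26 without mock replicate 3. matK, the splicing factor of plastid introns, had 10.93, 10.99 and 10.98 in NJ15, against 10.85, 10.93 and 11.11 in mock, a log2 fold change of 0.0022, which quantile normalization and centring turned to -0.0049 and -0.016. The envelope protein gene cemA had a log2 fold change of -0.2.

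**Figure D2:**
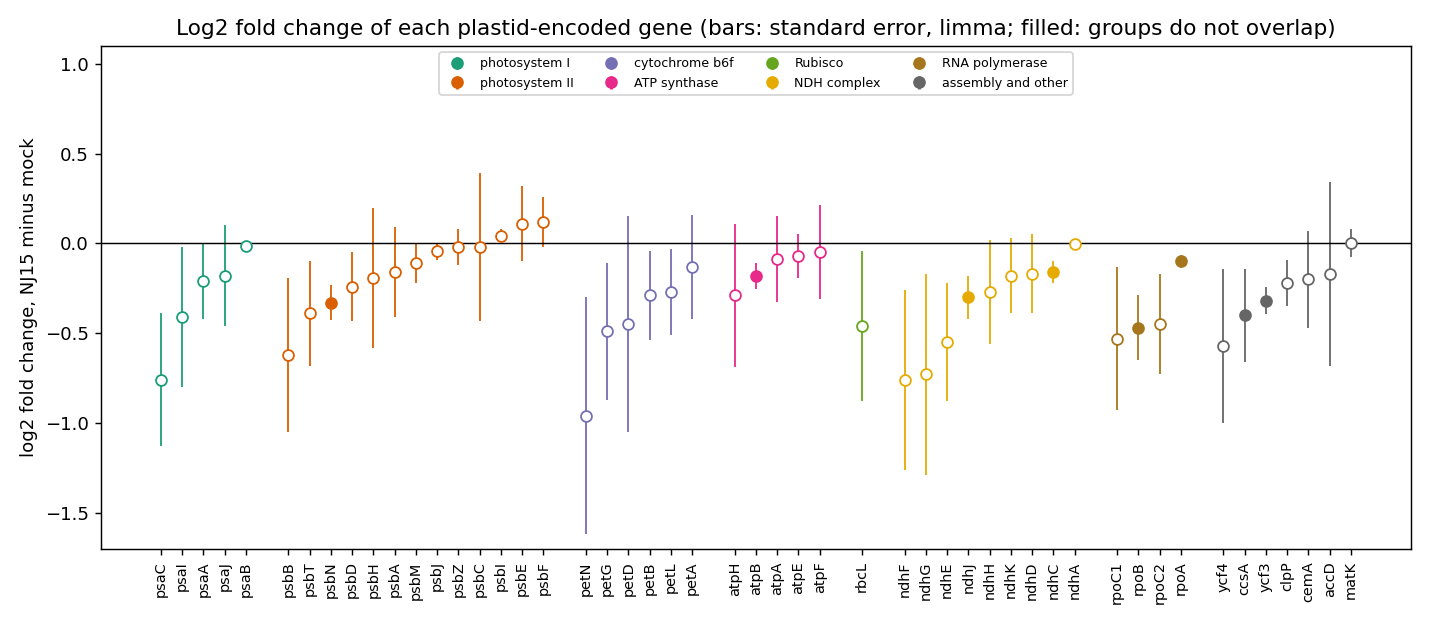
Log2 fold change, NJ15 minus mock (y axis), of the 50 varying members, sorted within functional groups. Bars are limma standard errors and filled points mark the 8 genes whose groups do not overlap. Most points lie below 0, from psbF at 0.12 down to petN at -0.96, and petN also has the widest bar.

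Single arrays stood apart within both groups. NJ15 replicate 3 was the lowest array in 24 of the 50 members (48%), against 10.4% of all varying probe sets. Mock replicate 3 was the highest in 29 (58%), against 30.4%, and mock replicate 1 in 16 (32%), against 16.4%. Relative to each gene's mean over the 6 arrays, the median deviation of the members was -0.016, -0.052 and -0.29 in NJ15 replicates 1, 2 and 3, against 0.079, -0.11 and 0.31 in mock replicates 1, 2 and 3. Mock replicate 2 thus lay below NJ15 replicates 1 and 2. The median standard deviation of a member was 0.18 in NJ15 and 0.35 in mock seedlings, while over all varying probe sets it was 0.12 and 0.18.

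**Figure D3:**
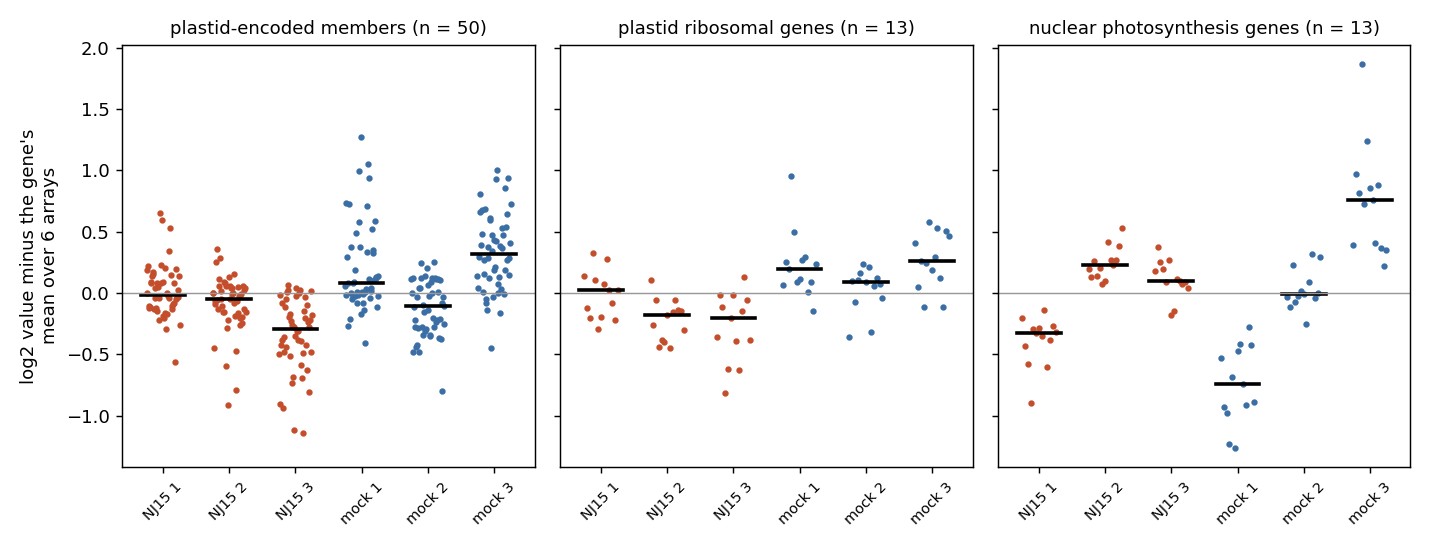
Log2 value of each gene minus its mean over the 6 arrays (y axis), for each NJ15 array and each mock array, in the plastid-encoded members, the plastid ribosomal protein genes and the nuclear photosynthesis genes. Points are genes and black lines are medians. In the members NJ15 replicate 3 is lowest at -0.29, whereas in the nuclear genes mock replicate 1 is lowest at -0.74.

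Mock replicates 1 and 3 did not differ in the same way for all members. petD, petN and ndhF were higher in mock replicate 1 than in mock replicate 3, by 1.44, 1.31 and 1.21 log2 units. rbcL, atpH and psaJ were lower in mock replicate 1, with differences of -1.41, -1.07 and -0.93. These 6 genes were chosen after their values were seen, as the ends of the range.

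The size of the change also followed the signal of the probe set. Across the 50 varying members, mean log2 value and log2 fold change had a Pearson r of 0.67 and a Spearman rho of 0.68, given as a description, since the members share the 6 arrays. The 4 varying members with the highest means, atpE, psaB, atpB and petB, had log2 fold changes between -0.29 and -0.012. The 5 varying members with the lowest means, ndhF, petD, rpoB, psaC and ndhH, had log2 fold changes between -0.76 and -0.27. Signal over background is unknown here, and the part of signal strength in the size of the changes was not tested.

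**Figure D4:**
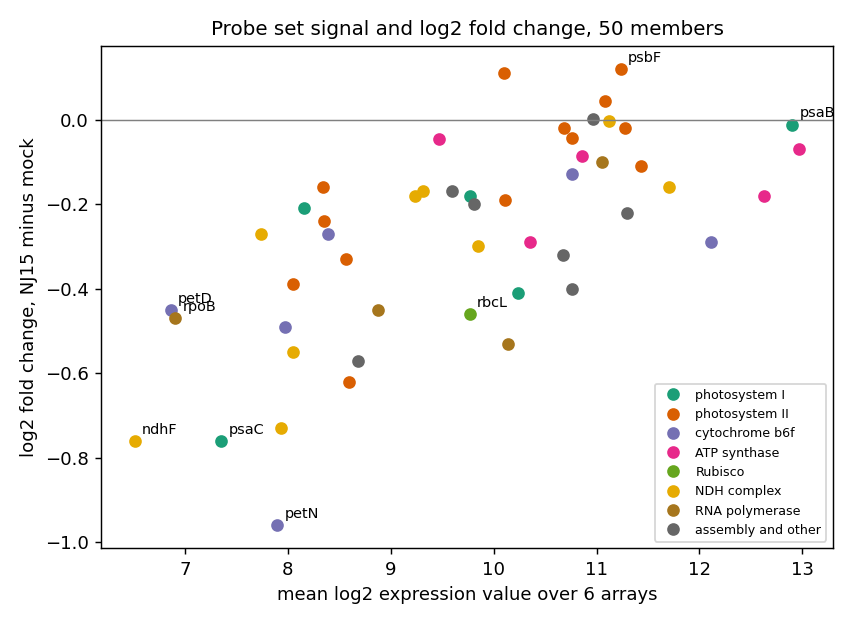
Mean log2 expression value over the 6 arrays (x axis) and log2 fold change, NJ15 minus mock (y axis), of the 50 varying members, coloured by functional group. The points run from ndhF, psaC and petN at the lower left to psaB and psbF at the upper right (Pearson r = 0.67).

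Neighbouring genes, many of them transcribed together, had similar changes in some clusters and not in others, which is given as a description. Which of these neighbours share a transcript was not checked here. The neighbours rpoB, rpoC1 and rpoC2 had log2 fold changes of -0.47, -0.53 and -0.45. In the psbB cluster, psbB, psbT, psbH, petB and petD ranged from -0.62 to -0.19, with psbN on the opposite strand at -0.33. From ccsA to ndhH, 7 neighbours varied, all with a lower mean, and their median of -0.4 was the value of ccsA itself. Those from ndhD to ndhH ran from -0.76 in psaC to -0.0043 in ndhA. The neighbours psbJ, psbF and psbE had -0.044, 0.12 and 0.11, and psbD, psbC and psbZ had -0.24, -0.02 and -0.02. The 5 members from accD to petA had a median of -0.2, the 3 from petL to psaJ -0.27 and the 3 from ndhJ to ndhC -0.18. For the 3 from psaA to ycf3 the median was -0.21, while rps14, a ribosomal gene beside psaB and not a member, had -0.63. Medians were -0.087 for the 3 varying ones of the atpA cluster and -0.12 for the pair atpB and atpE. In the cluster of psbK and psbI only psbI varied, at 0.043.

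**Figure D5:**
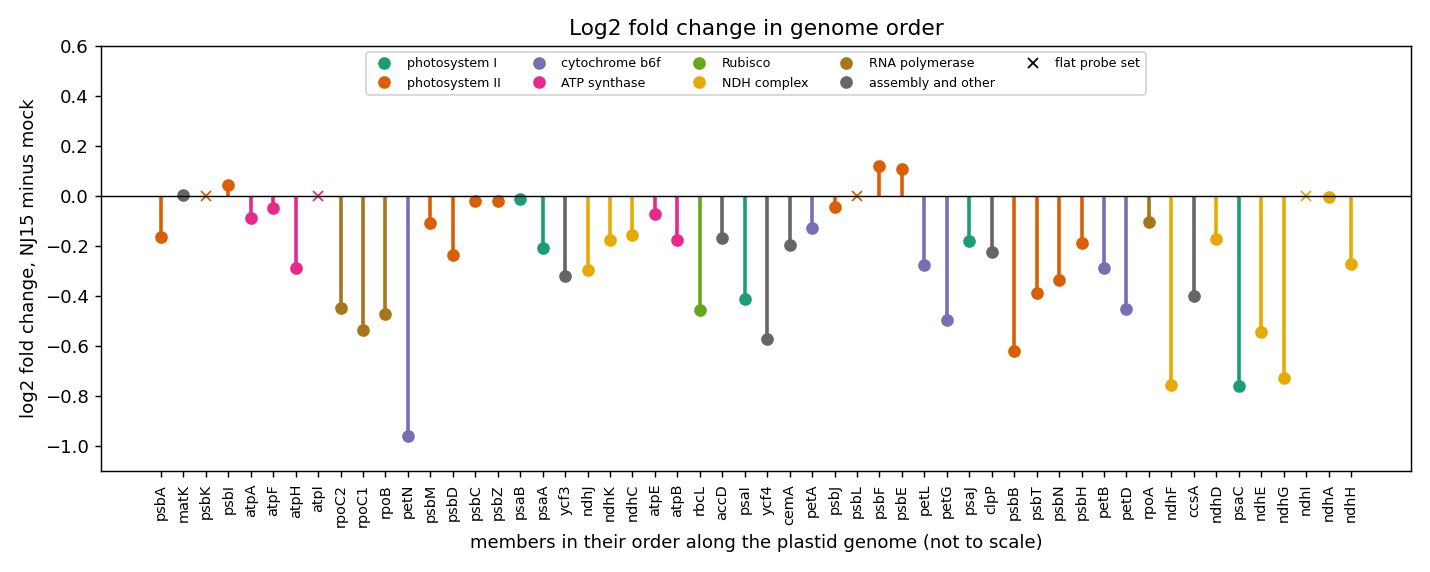
Log2 fold change, NJ15 minus mock (y axis), of the 54 measured members in their order along the plastid genome (x axis, not to scale), coloured by functional group, with crosses for the 4 flat probe sets. The rpo genes and the genes from psbB to petD form runs of lower means, while psbF and psbE stand above 0.

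The plastid genome also encodes ribosomal proteins. Of 23 other plastid genes listed (21 ribosomal proteins, ycf1 and ycf2), 15 had a single-gene probe set, all of them ribosomal, and 13 varied. All 13 had a lower mean in NJ15, with a median log2 fold change of -0.29 that stayed between -0.36 and -0.23 without any single array. The groups were separate in 5 of the 13 (38.5%), rps3, rps15, rps16, rpl14 and rpl16, against 5.96% of all varying probe sets. None passed the adjusted test in limma, and 4 had an unadjusted p under 0.05. Among all varying probe sets 7.28% had such a p, and 3.08% with a lower mean in NJ15. rps16, a protein of the small ribosomal subunit, had 7.15, 7.04 and 7.24 in NJ15 and 7.53, 7.68 and 8.02 in mock seedlings, a log2 fold change of -0.6 ± 0.15 (SE; adjusted p = 0.735 in limma). rpl16, of the large subunit, had 11.60, 11.08 and 11.14 in NJ15, against 11.80, 11.74 and 11.82 in mock, a log2 fold change of -0.51. rps14, encoded next to psaB, had the lowest log2 fold change of these genes, -0.63, with overlapping groups. rps3, rps4, rps15 and rpl14 had -0.26, -0.25, -0.6 and -0.26. With these genes, 59 of the 63 varying plastid probe sets had a lower mean in NJ15, against 53.1% of all varying probe sets.

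Nuclear photosynthesis genes are listed for comparison, and the difference between the lists was not tested. From a list of 64 genes, 15 had a single-gene probe set and 13 varied, of which 7 had a lower and 6 a higher mean in NJ15, with a median log2 fold change of -0.0015. That median depended on the mock arrays: it was -0.35 without mock replicate 1 and 0.36 without mock replicate 3, against -0.21 and -0.13 for the plastid members. None had separate groups, against 5.96% of all varying probe sets with NJ15 lower and 6.51% with NJ15 higher. Mock replicate 1 was the lowest array in 12 of the 13 and mock replicate 3 the highest in 11. Their median deviation from the 6-array mean was -0.33, 0.22 and 0.096 in NJ15 replicates 1, 2 and 3, against -0.74, -0.0042 and 0.75 in the mock replicates. RCA, which activates Rubisco, had 11.06, 11.89 and 11.76 in NJ15, against 10.75, 11.98 and 12.54 in mock. PSAN, a photosystem I subunit, had 9.62, 10.66 and 10.72 in NJ15, against 9.29, 10.45 and 12.39 in mock. Log2 fold changes were -0.19 for RCA, -0.38 for PSAN, -0.25 for PSB27 and 0.12 for LHCB4.1, and none passed. Mock replicate 3 was high in the plastid list and in the nuclear list alike, whereas mock replicate 1 lay above the 6-array mean in 33 of the 50 plastid members and in 0 of the 13 nuclear genes. The part of green tissue content in the plastid values was not tested.

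Mitochondrial genes are the other organelle RNAs with few poly(A) tails. Of 34 listed symbols, 11 had a single-gene probe set, and all 11, among them cox1 and nad4, were flat. No change can be stated for them.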

How the data were processed

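RNA of 6 seedling samples was measured on 1 Affymetrix array each. The authors deposited 1 log2 value per probe set and array; the base was read from its range of 5.3 to 14.04. R 2.7.2 was used, per the submitters' processing notes. How background, normalization and summarization were handled is not given in the sources used here, and no depth applies to arrays, whose number limits the precision.

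Values were used as deposited. Of 22810 probe sets, 64 were controls and stayed out; among the rest the annotation names a single gene for 13513, several for 503 and none for 8730. Symbols came from the platform annotation, and a gene table of assembly TAIR10.1 was used for names, genome and gene order only; mitochondrial genes were taken by symbol. After subtracting 1 array's value per probe set and rounding, limma 3.58.1 (lmFit and eBayes under R 4.3.3) gave two-sided p-values, adjusted by Benjamini and Hochberg's method across the 22746 probe sets, with calls under 0.05. The p-values set the difference of group means against the spread between these samples. The labels name biological replicates only, so whether that spread covers separate plates or days is unknown. The estimates of the fit were checked on simulated data. The simulated shifts were larger than the change of any member, so this check does not show whether such changes would be called. Plots used matplotlib 3.10.9 (Python 3.11.15).

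Members and lists were chosen with earlier results of these data known; they were described and not tested. Given in every sample were, per functional group, the member with the highest mean and that with the largest change, plus psbA, rbcL, psaA, psaB, petA, petB, atpA, atpB, ndhF, rpoB, rpoC1, clpP, accD and matK; of comparison lists, 2 genes of each kind were named. Other names, including psbN, ndhC, ndhJ, ycf3, ccsA, petD, rps15, rpl14 and rpl16, were chosen after their values were seen. Alternatives were quantile normalization, centring on the common median, a filter on means under 7, a trended robust prior, varying probe sets only, a replicate block and leaving out each array.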

Additional observations from a re-analysis of the deposited data

How the results depend on the processing

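The number of probe sets called among all (44 with limma) depended on almost every choice: 0 after quantile normalization, without low means, with the trended robust prior and with the replicate block (where 3347, 744, 886 and 1208 had an unadjusted p under 0.05), 4 over varying probe sets only, 0 there with the replicate block (449 unadjusted), between 4 and 15 without single arrays, and 17165 after centring. Centring moved flat probe sets of an array alike, and with it 11 members were called, 7 of them varying (psbN, ndhA, ndhC, ndhJ, rpoA, rpoB and ycf3), all lower; no other setting called a member. The labels do not say whether the replicate numbers pair the samples. Deviations of same-numbered samples from their group means correlated at 0.59, -0.3 and 0.19 over varying probe sets. Over the varying members they correlated at 0.79, -0.35 and 0.15. Deviations within a group are tied to one another, so these correlations cannot decide whether samples were paired. The block result is given only here.

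Of the 50 varying members, 36 kept their direction in all settings, of which only quantile normalization, centring and the leave-outs change a log2 fold change. The other 14 had log2 fold changes over the leave-outs of -0.02 to 0.0014 (psaB), -0.36 to 0.1 (psaJ), -0.24 to 0.31 (psbC), -0.078 to 0.27 (psbE), -0.47 to 0.11 (psbH), -0.076 to 0.06 (psbZ), -0.33 to 0.14 (petA), -0.19 to 0.11 (atpA), -0.13 to 0.014 (atpE), -0.23 to 0.15 (atpF), -0.53 to 0.1 (atpH), -0.33 to 0.014 (ndhK), -0.61 to 0.26 (accD) and -0.056 to 0.075 (matK). Quantile normalization turned psaB to 0.062 and matK to -0.0049, and centring turned matK to -0.016. Among nuclear genes the leave-outs ran from -0.12 to 0.34 (LHCB4.1), -1.09 to 0.46 (PSAN), -0.55 to 0.12 (PSB27) and -0.69 to 0.2 (RCA). Medians of neighbours ran from -0.36 to -0.009 (psaA to ycf3), -0.31 to -0.16 (ndhJ to ndhC), -0.039 to 0.23 (psbJ to psbE), -0.23 to 0.11 (atpI to atpA), -0.24 to 0.06 (psbD to psbZ), -0.61 to -0.043 (accD to petA), -0.17 to -0.055 (atpB and atpE), -0.49 to -0.17 (petL to psaJ), -0.52 to -0.23 (psbB to petD), -0.67 to -0.29 (rpoB to rpoC2) and -0.55 to -0.15 (ccsA to ndhH). Large changes that kept their sign ran from -1.06 to -0.5 (psaC), -0.92 to -0.3 (psbB), -1.11 to -0.42 (ndhF), -1.17 to -0.34 (ndhG) and -0.85 to -0.24 (rpoC1). Members with a lower mean numbered 34 to 48 and those with separate groups 8 to 20 over the leave-outs. Among all varying probe sets 46.8% to 57.7% were lower there, and 8.15% to 17.6% separate and lower. After quantile normalization the members numbered 46 and 6, against 58.6% and 7.31% of all varying probe sets. After centring they numbered 47 and 10, against 60.7% and 9.15%. These counts were added after the data were seen. The causes were not tested. Averaging several probe sets of a gene was not run, since each member had 1.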
